A study of Mus musculus with 4 samples.

Results

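The genes described here are 10 genes of myoblast fusion and cadherin adhesion in muscle stem cells (MuSCs) of the mouse. They are Mymk, Mymx, Myof, Dock1 and Jam3, which act in fusion, and Cdh15, Cdh2, Ctnna1, Ctnnb1 and Ctnnd1, which form or bind cadherin junctions. They were chosen by name, and all 10 of them had a row among the 19353 genes of the count table. The mice carried Pax7-CreERT2:Rosa-YFP, in which tamoxifen switches on yellow fluorescent protein (YFP) in cells where the Pax7 locus is active, and the YFP label then stays in the progeny of those cells. In the overloaded group, the distal tendons of the gastrocnemius and soleus muscles had been cut 4 days earlier (tenotomy), which loads the plantaris muscle; in the sham group the skin was opened and the tendons were left whole. YFP-positive MuSCs of the plantaris muscle were collected with a cell sorter, 100 to a tube, and each tube gave 1 library, with 2 libraries in each group. The sources do not state separate mice for the libraries of a group, so that p-values measure the spread between these libraries, which may be technical. In other experiments of the study the sham muscle was the contralateral one. Whether the sham and overloaded libraries share mice is not stated, and the groups were compared without pairing.

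A myofiber grows and regenerates by taking in the progeny of MuSCs, which leave quiescence, divide, commit as myoblasts, line up against a fiber or each other and fuse. Myomaker (Mymk) and myomixer (Mymx, also called myomerger or minion) are muscle-specific membrane proteins that carry out the merging of the lipid bilayers, and they are known to be switched on as myoblasts differentiate. Before the membranes merge, the cells are held together by cadherins, of which M-cadherin (Cdh15) is typical of MuSCs and sits where the cell touches its fiber. Inside the cell, beta-catenin (Ctnnb1) binds the tail of a cadherin, alpha-catenin (Ctnna1) ties that complex to actin, and p120-catenin (Ctnnd1) binds closer to the membrane and keeps the cadherin at the surface.

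In overloaded MuSCs, Mymk, Mymx, Myof and Cdh15 were higher than in sham MuSCs as a share of the RNA, and Ctnnb1 was lower. Of the 10 genes, 9 had enough counts to be tested. Differences were tested by the quasi-likelihood method of edgeR, with p-values adjusted by Benjamini-Hochberg over all 7228 genes tested and a threshold of 0.1. Of the 9 genes, 4 were higher, 1 was lower and 4 (Ctnna1, Ctnnd1, Dock1 and Jam3) did not pass. For Mymx and Myof, only the overloaded libraries held enough counts for the test, so only a rise could be called. Among all tested genes 52.1% passed, 25.8% as higher and 26.3% as lower, so that a passing gene was common in this comparison. On the log2 scale the 9 genes had a median fold change of 0.47, against 0.05 for all tested genes, and it is the same with Mymx set at its lower bound. The groups did not overlap for 5 of the 9 genes in the upward direction and for 1 in the downward direction, and among all tested genes 37.5% were without overlap upward and 35.4% downward.

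The libraries were made by CEL-Seq2, which reads a transcript next to its poly(A) tail and tags each captured molecule with a unique molecular identifier (UMI), so that a transcript counts once whatever its length. In total, 269683 and 260488 UMIs were counted in the sham libraries and 387955 and 483528 in the overloaded libraries. Levels are given as UMIs and as CPM, that is, UMIs of a library scaled to a common total by the TMM method, which assumes that most genes keep their share of the RNA. In CPM, 3 UMIs were worth 13.1 and 13.6 in the sham libraries and 7.80 and 6.08 in the overloaded libraries. In such pooled cells, a change in how many of the 100 cells carry a transcript and a change in how much each cell carries cannot be told apart.

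**Figure D1:**
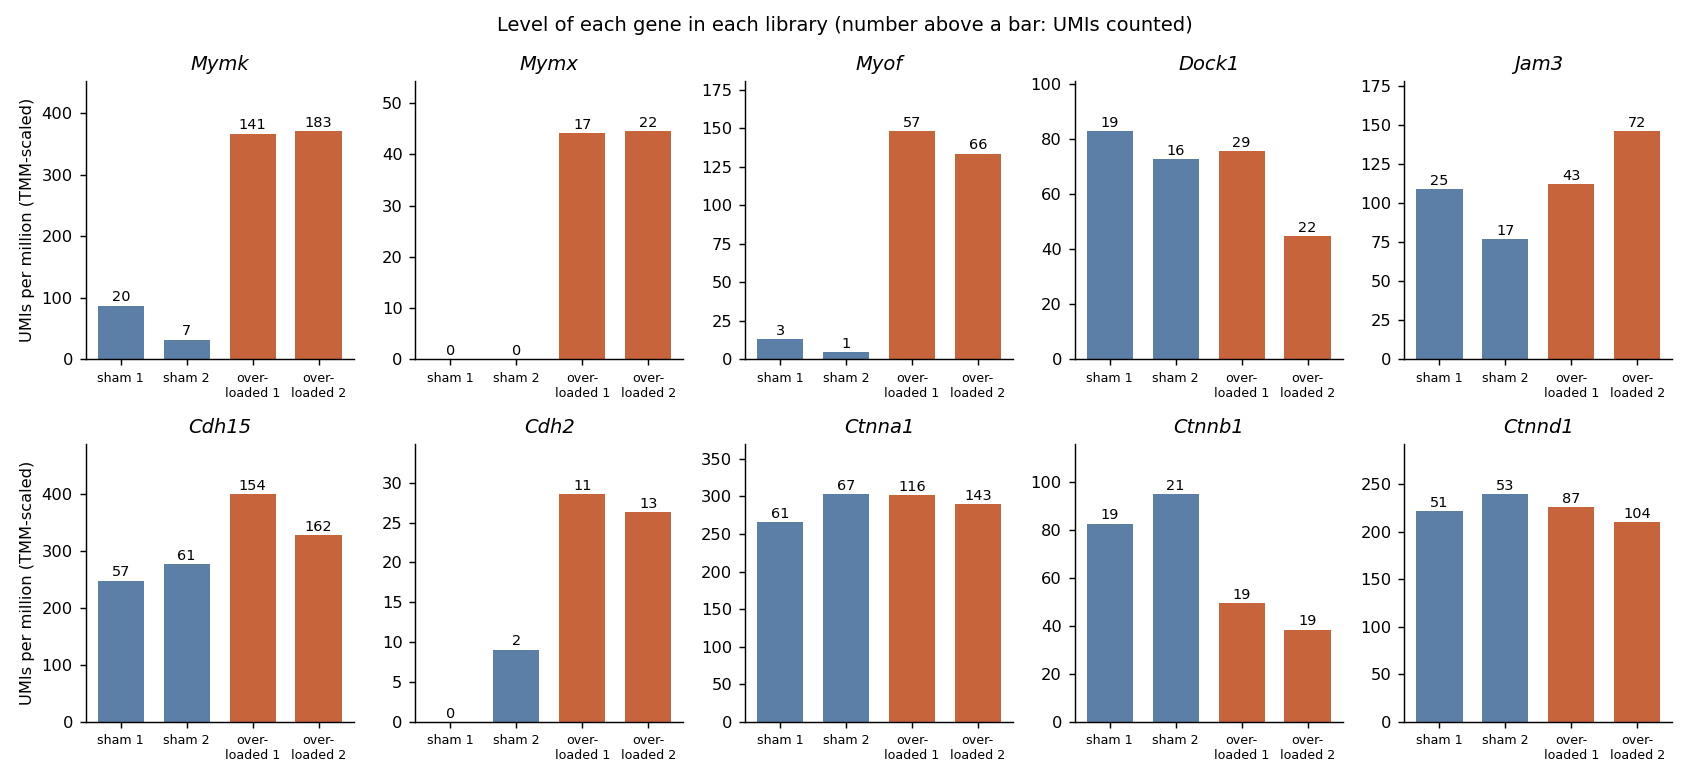
Level of each of the 10 genes in each library, in CPM after TMM scaling (vertical axes, which differ between panels and start at 0), with the number of UMIs counted above each bar. Mymk, Mymx and Myof stand far higher in both overloaded libraries, whereas Ctnna1 and Ctnnd1 have nearly level bars and Ctnnb1 is lower in both overloaded libraries.

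The coding sequence of Mymx is shown because this gene, with no UMI in the sham group, has the shortest coding sequence among the 10 genes. The Mymx gene lies on the minus strand at chr17:45600971-45602102 (GRCm38, GENCODE M21). Its coding part has 84 codons before the stop in 3 of the 4 annotated transcripts, at chr17:45601417-45601671, and 108 codons in the other one. It is printed 5′ to 3′ with the start and stop codons in capitals, and the UMIs were counted from the poly(A) end downstream of it.
Mymx: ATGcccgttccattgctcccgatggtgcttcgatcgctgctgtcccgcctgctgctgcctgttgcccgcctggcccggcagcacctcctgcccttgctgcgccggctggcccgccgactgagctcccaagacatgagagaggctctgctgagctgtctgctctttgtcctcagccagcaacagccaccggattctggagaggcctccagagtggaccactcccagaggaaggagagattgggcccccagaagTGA

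The 250 bases before a transcript start were read from RefSeq (GRCm38.p6) for the genes past the threshold that have an entry there, Cdh15, Myof and Ctnnb1, to show the muscle cadherin beside a fusion gene that rose and a catenin that fell. They were searched for the E-box CANNTG, the hexamer bound by MyoD, myogenin and other basic helix-loop-helix factors, which reads the same on both strands. A match is printed in capitals. The RefSeq starts of Cdh15 and Ctnnb1 lie downstream of the outermost GENCODE gene starts given further on, so that these windows fall inside the GENCODE genes. Cdh15 (chr8:122848124-122848373, plus strand) held 3 matches. Myof (chr19:38043578-38043827, minus strand) held 0 matches, and the first of the Ctnnb1 starts (chr9:120933150-120933399, plus strand) also held 0. Of 32851 promoter windows of this length, 66.2% held at least 1 match and 12.2% held at least 3, and no binding was measured in these cells.
Cdh15: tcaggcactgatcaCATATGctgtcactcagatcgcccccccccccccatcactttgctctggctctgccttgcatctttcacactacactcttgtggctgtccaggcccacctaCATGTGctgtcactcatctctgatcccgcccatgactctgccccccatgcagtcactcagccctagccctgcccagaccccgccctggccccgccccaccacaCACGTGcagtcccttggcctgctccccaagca
Myof: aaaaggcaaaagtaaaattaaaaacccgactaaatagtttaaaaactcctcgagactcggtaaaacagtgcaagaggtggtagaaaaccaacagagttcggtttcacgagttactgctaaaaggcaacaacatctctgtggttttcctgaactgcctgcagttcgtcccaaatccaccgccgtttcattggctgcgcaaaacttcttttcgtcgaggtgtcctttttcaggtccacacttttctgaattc
Ctnnb1: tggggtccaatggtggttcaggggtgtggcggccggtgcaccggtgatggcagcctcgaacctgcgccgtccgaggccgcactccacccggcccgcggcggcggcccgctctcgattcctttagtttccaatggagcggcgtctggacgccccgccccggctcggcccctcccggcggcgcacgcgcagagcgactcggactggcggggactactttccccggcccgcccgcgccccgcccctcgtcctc
The share of G and C was 62.0% in the Cdh15 window, 42.8% in the Myof window and 74.8% in the Ctnnb1 window.

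Both membrane fusogens were higher in overloaded MuSCs. Mymk (chr2:27061636-27072179, minus strand) encodes the multi-pass membrane protein that a myoblast needs in order to fuse. The sham libraries gave 20 and 7 UMIs of Mymk, and the overloaded libraries gave 141 and 183. Both overloaded libraries stood above both sham libraries, and the overloaded libraries were nearly level with each other once scaled, whereas sham 1 held more than sham 2. This came to 59.4 CPM ± 39.1 (SD, n = 2) for sham MuSCs and 369 CPM ± 2.80 (SD, n = 2) in overloaded MuSCs. The log2 fold change of Mymk was 2.61 (SE 0.28, 95% interval 2.03 to 3.20), with an adjusted p of 1.6e-06 by edgeR's quasi-likelihood test, and it ranked 271 from the top among the 7228 tested genes. Without sham 1, the log2 fold change of Mymk was 3.49, and without sham 2 it was 2.04.

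Mymx encodes the micropeptide that works together with myomaker at the cell surface. No UMI of it (0 and 0) was found in the sham libraries, against 17 and 22 in the overloaded libraries. The groups did not overlap, and the overloaded libraries were nearly equal at 44.2 and 44.6 CPM. Against a floor of 3 UMIs over the sham group, Mymx was at least 6.67-fold higher in overloaded MuSCs, with an adjusted p of 1.4e-04 by edgeR's quasi-likelihood test. All UMIs of Mymx came from the overloaded libraries, so only a rise could be called. With loess offsets in place of TMM, a scaling described further on, Mymx no longer passed (adjusted p = 0.28).

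Myof encodes myoferlin, a large calcium-binding membrane protein of the ferlin family that is known from myoblast fusion and vesicle traffic (chr19:37899036-38043577, minus strand). It had 3 UMIs in sham 1, 1 in sham 2, 57 in overloaded 1 and 66 in overloaded 2. Both overloaded libraries were far above both sham libraries. Only the overloaded libraries held enough UMIs of Myof for the test, so only a rise could be called. The level of Myof was 8.79 CPM ± 6.03 in sham MuSCs and 141 CPM ± 10.3 in overloaded MuSCs (SD, n = 2 in each group). Its log2 fold change of 3.93 (SE 0.47, 95% interval 2.94 to 4.91) was the largest of the 8 tested genes with UMIs in the sham group, with an adjusted p of 5.7e-06 by edgeR's quasi-likelihood test. Because it rests on 4 sham UMIs in all, the scaled ratio of Myof is also given with its counting interval, 15.8 (95% exact interval 6.01 to 58.8). Without sham 1 its log2 fold change was 4.82, and without sham 2 it was 3.35.

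The remaining fusion genes did not pass the test. Dock1 encodes an exchange factor that activates Rac and so remodels actin under the fusing membranes (chr7:134670654-135173639, plus strand). Its UMIs numbered 19 and 16 in sham MuSCs and 29 and 22 in overloaded MuSCs. Once scaled, overloaded 1 at 75.4 CPM lay between the sham libraries at 82.7 and 72.5 CPM, and overloaded 2 lay lowest at 44.6 CPM. Dock1 had a log2 fold change of -0.41 (95% interval -1.16 to 0.35).

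Jam3 encodes a junctional adhesion molecule of the immunoglobulin family, and a partnership of such molecules across the cell border is needed for fusion in fish muscle (chr9:27097384-27155421, minus strand). Its UMIs numbered 25 and 17 in sham MuSCs and 43 and 72 in overloaded MuSCs. The groups did not overlap once scaled, but by little, since sham 1 stood at 109 CPM and overloaded 1 at 112 CPM. Jam3 had a log2 fold change of 0.48 (95% interval -0.10 to 1.06), with an adjusted p of 0.17 by edgeR's quasi-likelihood test. Without overloaded 1, Jam3 passed (log2 fold change 0.67, adjusted p = 0.099).

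The cadherins were both counted more often in overloaded MuSCs, and the rise of Cdh15 was modest after TMM scaling. Cdh15 (chr8:122847966-122867397, plus strand) had the most UMIs of the 10 genes in the total over all libraries, though Ctnna1 had more in both sham libraries and Mymk more in overloaded 2. It had 57 and 61 UMIs in the sham libraries and 154 and 162 UMIs in the overloaded libraries. The groups did not overlap once scaled, with 248 and 276 CPM in sham MuSCs and 400 and 328 CPM in overloaded MuSCs. The mean level was 262 CPM ± 19.96 in sham and 364 CPM ± 51.2 in overloaded MuSCs (SD, n = 2 in each group). Its log2 fold change was 0.47 (SE 0.18, 95% interval 0.08 to 0.86), with an adjusted p of 0.049 by edgeR's quasi-likelihood test. Cdh15 did not pass with DESeq2 (adjusted p = 0.24), nor without sham 1 (0.35), without sham 2 (0.18) or without overloaded 1 (0.17).

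Cdh2, on chromosome 18, encodes N-cadherin, a classical cadherin that MuSCs and their fibers also carry. Its UMIs, 0 and 2 in sham MuSCs and 11 and 13 in overloaded MuSCs, were too few for the test. The overloaded libraries were both higher. The scaled ratio of overloaded to sham was 6.15 (95% exact interval 1.53 to 53.7, covering counting error only). Of the 2 sham UMIs both came from sham 2, and without sham 1 the log2 fold change of Cdh2 was 1.53 (adjusted p = 0.302 by edgeR's quasi-likelihood test), while without sham 2 the remaining sham library was at 0 (adjusted p = 0.0325). With both sham libraries and no filter on low counts, Cdh2 passed (2.60, adjusted p = 0.010), and with DESeq2 it did not (2.63, adjusted p = 0.187).

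After TMM scaling, none of the 3 catenins passed as higher, although Ctnna1 and Ctnnd1 did so on other scales given further on. Ctnna1 (chromosome 18) had 61 and 67 UMIs in sham MuSCs and 116 and 143 UMIs in overloaded MuSCs. Once scaled, both overloaded libraries, at 302 and 290 CPM, lay between the sham libraries at 266 and 304 CPM. Its log2 fold change was 0.05 (95% interval -0.32 to 0.43).

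Ctnnd1 (chr2:84600071-84650765, minus strand) had 51 and 53 UMIs in sham MuSCs and 87 and 104 UMIs in overloaded MuSCs. Its libraries overlapped, with 222 and 240 CPM in sham MuSCs and 226 and 211 CPM in overloaded MuSCs. Its fold change was -0.08 on the log2 scale (95% interval -0.48 to 0.31).

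Ctnnb1 (chr9:120929216-120960507, plus strand) encodes beta-catenin, which serves both at the junction and in Wnt signaling. It had 19 and 21 UMIs in sham MuSCs and 19 and 19 UMIs in overloaded MuSCs. The UMI counts were thus level while the totals of the overloaded libraries were larger, and once scaled both overloaded libraries lay below both sham libraries. The level of Ctnnb1 was 88.9 CPM ± 8.79 in sham MuSCs and 43.9 CPM ± 7.73 in overloaded MuSCs (SD, n = 2 in each group). Its log2 fold change was -1.03 (SE 0.34, 95% interval -1.75 to -0.31), with an adjusted p of 0.022 by edgeR's quasi-likelihood test. Ctnnb1 did not pass with DESeq2 (adjusted p = 0.20) or without overloaded 2 (0.155). Of its last 500 exonic bases, 475 are shared with exons of Ulk4 on the other strand, which had 2, 1, 5 and 1 UMIs in sham 1, sham 2, overloaded 1 and overloaded 2, and the strand setting of the counting is not given in the sources used here.

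These changes were read on 3 scales, because the overloaded tubes held more UMIs for the same number of cells. On the scale of UMIs per tube of 100 cells, the median log2 fold change of all tested genes was 1.01, against 0.05 after TMM scaling. On that scale 7 of the 9 genes were higher and 0 were lower, in a background in which 62.0% of tested genes were higher and 4.58% lower. Mymk at 3.57 and Myof at 4.86 lay far above that median, Cdh15 at 1.42 and Jam3 at 1.45 lay above it, and Ctnna1 at 1.02 lay on it. Ctnnd1 at 0.88 and Dock1 at 0.54 lay below it, both with a sign opposite to that after TMM scaling, and Ctnnb1 at -0.07 (adjusted p = 0.88 by edgeR's quasi-likelihood test) was level in UMIs per tube.

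The third scale used the loess offsets per library, which are meant to remove a dependence of the fold changes on abundance. There, 4 of the 9 genes were higher (Mymk, Myof, Cdh15 and Ctnna1) and 1, Ctnnb1, was lower, in a background of 20.7% higher and 21.7% lower. Cdh15 then had a log2 fold change of 0.98 (adjusted p = 8e-05 by edgeR's quasi-likelihood test) and Ctnna1 one of 0.54 (adjusted p = 0.017). Ctnnb1 had a log2 fold change of -1.13 on this scale and Mymk one of 2.69. Mymk and Myof passed as higher on all 3 scales, and so did Cdh15.

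**Figure D2:**
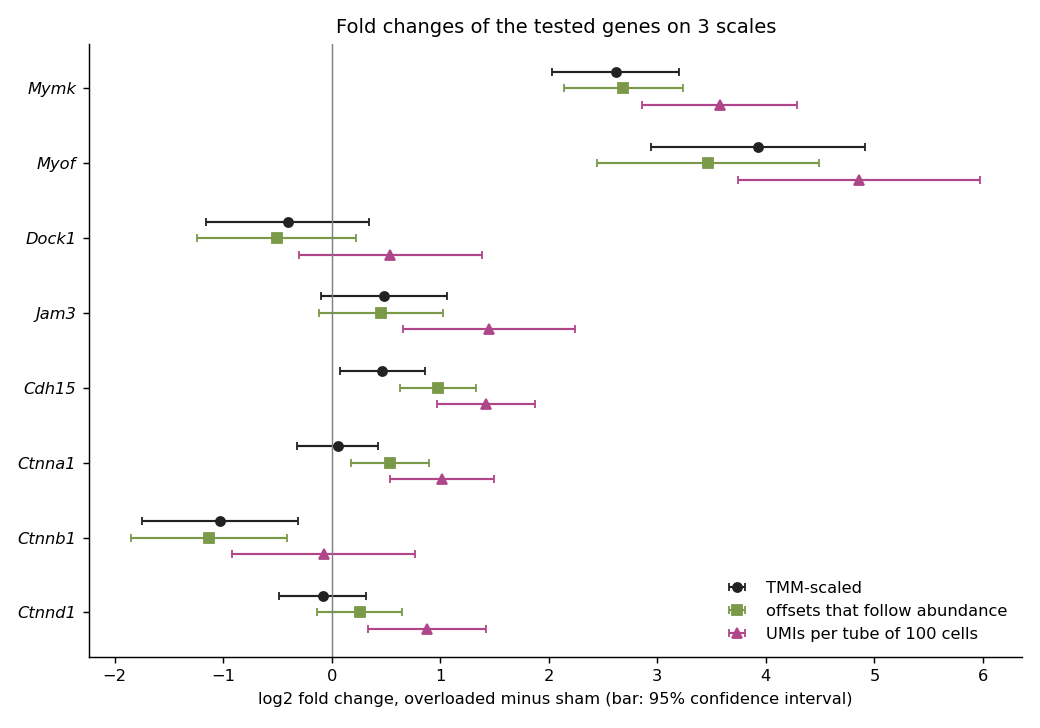
Log2 fold changes (overloaded minus sham, horizontal axis) of 8 tested genes on 3 scales, with 95% confidence intervals from edgeR; Mymx, with 0 UMIs in the sham group, is left out. Mymk and Myof lie well to the right on each scale, Ctnnb1 is at -1.03 after TMM scaling and at -0.07 in UMIs per tube, and Ctnnd1 and Dock1 change sign between those scales.

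A share of UMIs between 2 genes of the same library does not depend on a scaling common to all its genes, such as TMM. The loess offsets vary with the abundance of a gene, so the shares given here, taken from UMIs as counted, need not hold on that scale. Of the UMIs of Cdh15 and Ctnnb1 together, Ctnnb1 made up 25.0% and 25.6% in the sham libraries and 10.98% and 10.5% in the overloaded libraries. The shares of Ctnnd1 against Cdh15 were 47.2% and 46.5% in sham and 36.1% and 39.1% in overloaded MuSCs. Those of Ctnna1 against Cdh15 were 51.7% and 52.3% in sham and 43.0% and 46.9% in overloaded MuSCs. All 3 catenins thus made up less beside Cdh15 in both overloaded libraries than in both sham libraries, Ctnnb1 by the widest margin.

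Among the catenins themselves, Ctnnb1 made up 23.8% and 23.9% of the UMIs of Ctnnb1 and Ctnna1 in the sham libraries and 14.1% and 11.7% in the overloaded libraries. Between the cadherins, Cdh2 made up 0% and 3.17% in sham and 6.67% and 7.43% in overloaded MuSCs, so that Cdh15 supplied nearly all of the counted cadherin pair in every library.

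The share of Mymk against Cdh15 was 26.0% and 10.3% in the sham libraries and 47.8% and 53.0% in the overloaded libraries. Against Myog, the gene of the differentiation factor myogenin, Mymk made up 27.8% and 12.5% in sham and 36.4% and 39.4% in overloaded MuSCs. Mymk therefore stood higher in both overloaded libraries also beside Myog, although the exact binomial intervals of sham 1 (17.9% to 39.6%) and overloaded 1 (31.6% to 41.4%) overlapped. Mymx made up 10.8% and 10.7% of the UMIs of the fusogen pair in the overloaded libraries and 0% in the sham libraries, where the few Mymk UMIs left exact intervals reaching 16.8% and 41.0%. The groups were without overlap in all 8 shares, but with 2 libraries against 2 the two-sided exact permutation test cannot go below 0.333, and p was 0.333 for each of the 8, also after Benjamini-Hochberg adjustment.

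**Figure D3:**
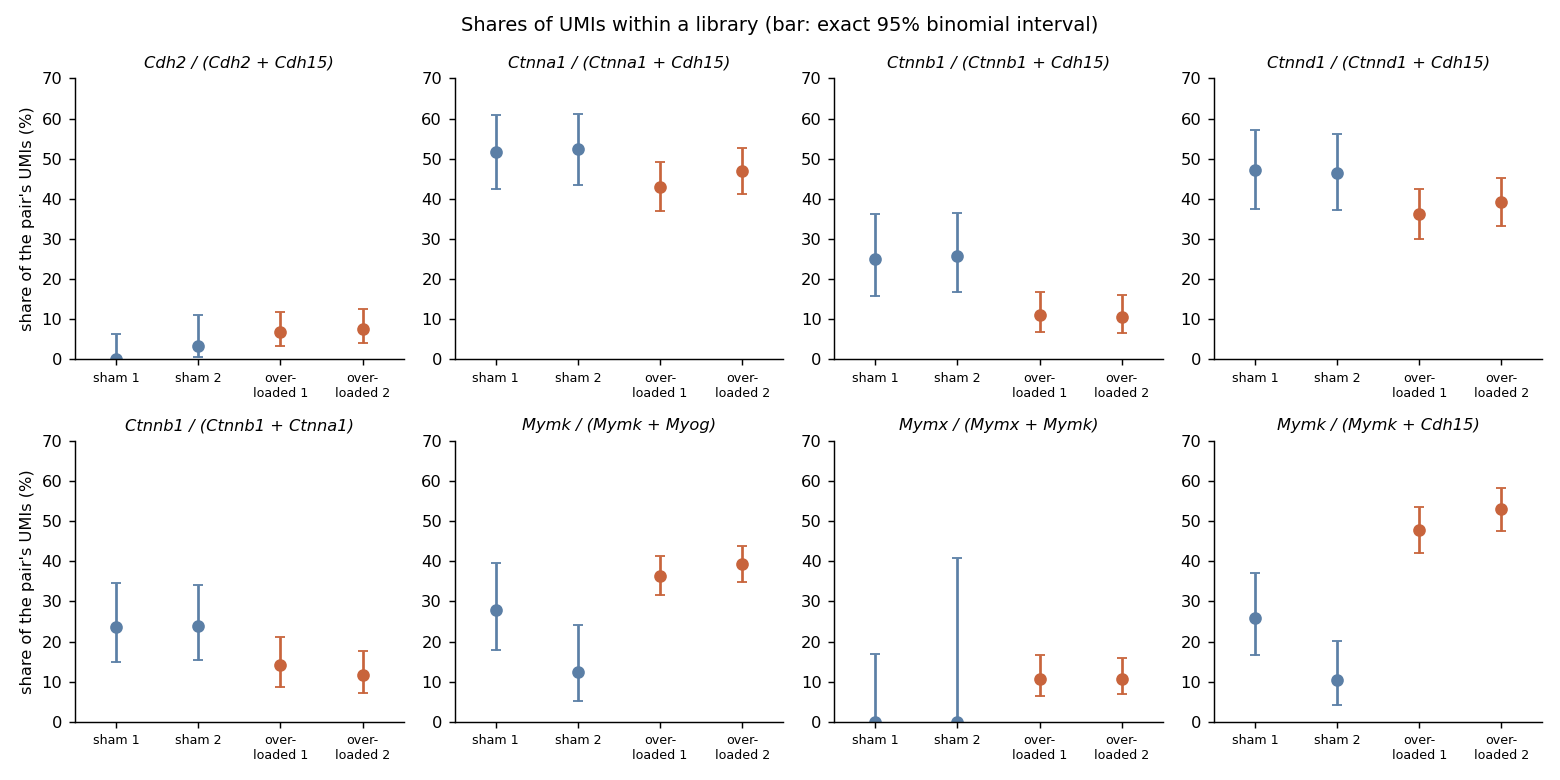
Share of one gene in the UMIs of a pair of genes (vertical axis, percent) in each of the 4 libraries, for 8 pairs; bars are exact 95% binomial intervals, which cover counting error only. The shares of the 3 catenins beside Cdh15 are lower in both overloaded libraries, and the shares of Mymk beside Cdh15 and beside Myog are higher.

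The state of the cells was read from the regulators of the myogenic program. Pax7, the transcription factor of MuSCs, had 118 and 107 UMIs in sham MuSCs and 108 and 137 UMIs in overloaded MuSCs. Its log2 fold change was -0.84 (SE 0.16), with an adjusted p of 6.4e-04 by edgeR's quasi-likelihood test, so that Pax7 was lower as a share of the RNA. It did not pass on the other scales, at 0.12 in UMIs per tube and -0.22 with the loess offsets (adjusted p = 0.28). Myog had 52 and 49 UMIs in sham MuSCs and 246 and 282 UMIs in overloaded MuSCs, with a log2 fold change of 1.43 (SE 0.18) and an adjusted p of 1e-05. Myf5 (0.10) and Myod1 (0.29), the determination factors, did not pass after TMM scaling. Both passed as higher with the loess offsets (1.12 and 0.95) and in UMIs per tube (1.05 and 1.25). The log2 fold change of Mymk, 2.61, was larger than that of Myog, but the difference between these fold changes was not tested.

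Further genes of the same processes were counted in lists. Of 84 further genes listed for fusion and for cell-cell junctions, 78 had a row and 53 were tested, of which 7 were higher, 19 were lower and 27 did not pass after TMM scaling, against 25.8% higher and 26.3% lower among all tested genes. Their median log2 fold change was -0.18, against 0.05 for all tested genes. These counts depended on the scale: with the offsets 13 were higher and 10 lower (20.7% and 21.7% of all tested genes), and in UMIs per tube 32 were higher and 1 was lower (62.0% and 4.58% of all tested genes). The genes of each list below are given as values, since calls in either direction were common among all tested genes.

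Among surface and signaling genes of fusion, 12 were tested and 6 did not pass. Of the rest, 1 was higher and 5 were lower (against 25.8% and 26.3% of all tested genes). Adam12, a membrane metalloprotease of regenerating muscle, was counted 12, 8, 47 and 43 times in sham 1, sham 2, overloaded 1 and overloaded 2 (log2 fold change 1.21, adjusted p = 0.012 by edgeR's quasi-likelihood test). The largest falls were those of Igf1r, the receptor of insulin-like growth factor (-0.94), and Vcam1, the adhesion molecule used to sort MuSCs (-0.90). Nfatc2, a calcium-regulated factor of the secondary phase of fusion, followed with a log2 fold change of -0.60, and the tetraspanin Cd9 with -0.58.

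Among the genes that remodel actin at the fusion site, 21 were tested and 12 did not pass. Of the rest, 3 were higher and 6 were lower (against 25.8% and 26.3% of all tested genes). Those that were higher were Actr2, a subunit of the Arp2/3 complex (log2 fold change 0.90), Cyfip1 (0.82) and Wasf2 (0.49), which belong to the WAVE complex that activates Arp2/3. Those that were lower included Wasl, the gene of N-WASP (-0.95), the adaptor Crk (-0.73), and the WASP-binding genes Wipf1 (-0.61) and Wipf2 (-0.55). Elmo1, the usual partner of Dock1 in Rac activation, was lower too, with 11, 9, 6 and 12 UMIs in sham 1, sham 2, overloaded 1 and overloaded 2. Elmo1 averaged fewer than 10 UMIs per library, below the minimum of the naming rule, and was chosen after its values were seen.

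Among the membrane and vesicle genes, 8 were tested and 4 did not pass. Of the rest, 3 were higher and 1 was lower (against 25.8% and 26.3% of all tested genes). Cav3, the caveolin of muscle, had 0 UMIs in both sham libraries and 18 and 22 UMIs in the overloaded libraries. Against the floor of 3 UMIs over the sham group it was at least 6.84-fold higher (adjusted p = 1.3e-04 by edgeR's quasi-likelihood test), a pattern of counts close to that of Mymx. As for Mymx, only a rise of Cav3 could be called. The annexins, which bind phospholipid in the presence of calcium, did not move together: Anxa1 (1.29) and Anxa2 (0.75) were higher and Anxa5 (-0.70) was lower on the log2 scale.

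Other junction genes gave no gene that was higher after TMM scaling, against 25.8% of all tested genes. Of the other cadherins and catenin partners 6 were tested, 3 were lower (against 26.3% of all tested genes) and 3 did not pass. The lower ones named by the rule were Jup, the gene of plakoglobin and a relative of beta-catenin (-0.68), and Cdh13, a cadherin without a cytoplasmic tail (-0.67). Cdh4, the gene of R-cadherin, was also lower, with 14 and 13 UMIs in the sham libraries and 1 and 0 in the overloaded libraries. Only the sham libraries held enough UMIs of Cdh4 for the test, so only a fall could be called. Cdh4 averaged under 10 UMIs and was chosen after its values were seen. Of the nectins, JAMs and junction scaffolds 6 were tested, 4 were lower (against 26.3% of all tested genes) and 2 did not pass. The lower ones included Nectin3 (-0.96), Nectin1 (-0.85) and Afdn, the gene of afadin, which ties nectins to actin (-0.74).

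**Figure D4:**
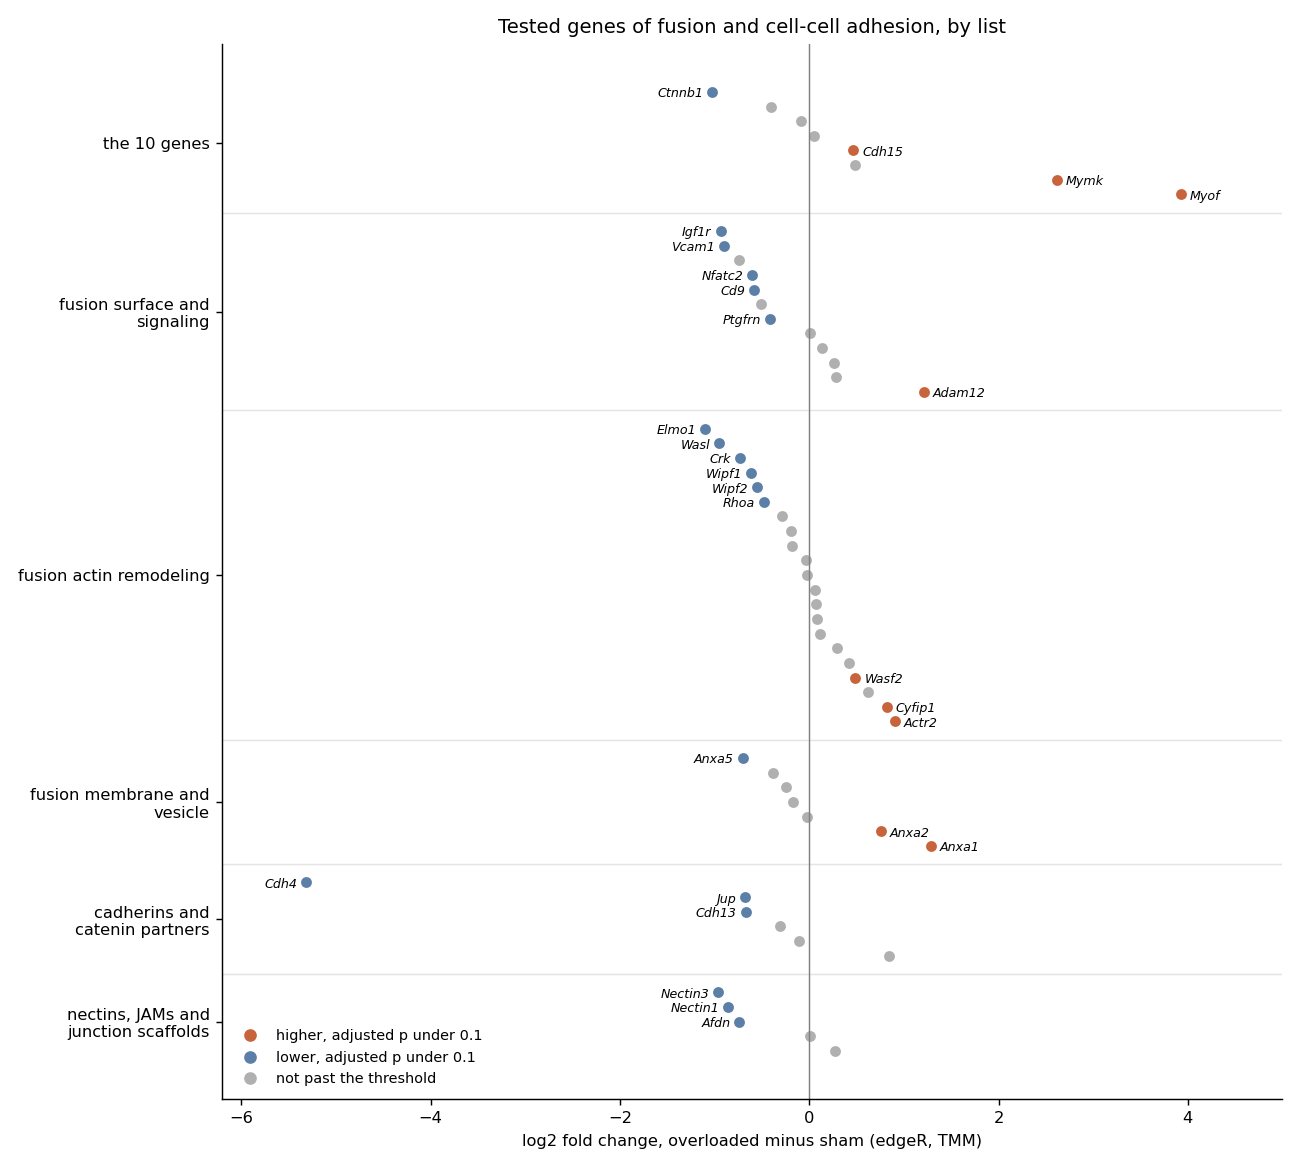
Log2 fold changes (overloaded minus sham, horizontal axis, TMM-scaled) of the tested genes by list, 1 point per gene, orange or blue where the adjusted p was under 0.1; Mymx and Cav3, with 0 UMIs in the sham group, are not drawn, and the point of Cdh4 rests on 1 UMI in the overloaded group. Mymk and Myof lie to the right of every other point, and the called genes of the last 2 lists are all lower on this scale.

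The sorted cells carried the markers of MuSCs in every library, with Sdc4 first of 10 markers in the total over all libraries. The summed level of the 10 MuSC markers, which include Cdh15, Pax7 and Vcam1, was 6603 and 5803 CPM in the sham libraries and 4228 and 3617 CPM in the overloaded libraries. After TMM scaling 2 of these markers were higher (Cdh15 and Itga7), 7 were lower and 1 did not pass, against 25.8% higher and 26.3% lower among all tested genes. In UMIs per tube some of the lower ones were nearly level, such as Sdc4 with 422, 284, 375 and 345 UMIs and Vcam1 with 209, 175, 184 and 215. Others were lower in UMIs as well, namely Calcr with 37, 57, 15 and 15 and Cd34 with 32, 38, 20 and 15. So were Chodl with 196, 188, 114 and 105 UMIs and Chrdl2 with 114, 126, 36 and 45.

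Transcripts of mature myofibers were higher in both overloaded libraries, as Mymk was. The summed level of 9 myofiber markers was 1698 CPM in sham 1, 901 in sham 2, 3107 in overloaded 1 and 2922 in overloaded 2. Acta1, the skeletal actin, was first in every library with 120, 66, 299 and 342 UMIs. All 6 tested markers were higher, against 25.8% of all tested genes. Atp2a1 had 1, 0, 6 and 6 UMIs. Myh1 and Myh2 were at 0 in all libraries but overloaded 2, with 2 UMIs each. The part of myofiber transcripts in the result for Mymk, Mymx, Myof and Cav3 was not tested.

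Leukocyte markers summed to 8.71 and 22.7 CPM in the sham libraries and to 179 and 328 CPM in the overloaded libraries. Lyz2 was first in the total over all libraries with 0, 0, 17 and 38 UMIs. Both sham libraries had 0 UMIs of 8 of the 10 markers. Only 2, Lyz2 and Cd74, had enough counts for the test, all of them in the overloaded libraries, so only a rise could be called. The leukocyte sums were larger in overloaded 2 than in overloaded 1, and the part of leukocyte transcripts in the results was not tested.

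In the other lists the sums differed less, but single genes moved both ways. Fibro-adipogenic markers summed to 3521 and 3307 CPM in sham and 3232 and 2942 CPM in overloaded MuSCs, with Col1a1 first in UMIs summed over all libraries and the defining marker Pdgfra at 0, 0, 2 and 0 UMIs. Within this list Ly6a, with 1, 0, 22 and 41 UMIs (adjusted p = 1.1e-04 by edgeR's quasi-likelihood test), and Col1a2 (log2 fold change 1.84) were higher. Gsn (-1.09), Dpt (-1.43) and Dcn (-0.38) were lower. All of these genes were chosen after their values were seen, and for Ly6a only a rise could be called. Mural markers summed to 1532 and 1432 CPM in sham and 1563 and 1709 CPM in overloaded MuSCs, with Acta2 first in the total over all libraries and Myh11 at 0 in all libraries but overloaded 2. Of these, Acta2 (0.95) and Rgs5 (1.88) were higher and Notch3 (-1.07) and Tagln (-0.61) lower on the log2 scale, the last 3 chosen after their values were seen. Pdgfra and Myh11 thus added little to these sums, and the part of such cells in the results was not tested. Endothelial markers summed to 87.1 and 72.5 CPM in sham and 127 and 103 CPM in overloaded MuSCs, with Tek first in the total over all libraries and Cldn5 and Egfl7 at 0 in both sham libraries. Tek, the only one of them with enough UMIs for the test, was lower (log2 fold change -1.41, adjusted p = 0.015). The other 7 endothelial markers, all untested, had more UMIs as counted in the overloaded group, whose libraries were also larger. Among them were Cdh5 with 3, 1, 14 and 11 (scaled ratio 3.21, 95% exact interval 1.11 to 12.7) and Pecam1 with 4, 2, 11 and 7. Glial markers summed to at most 18.2 CPM in any library.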

How the data were processed

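CEL-Seq2 libraries were made from tubes of 100 YFP-positive MuSCs of sham-operated and overloaded plantaris muscle, 2 per group, grouped by their titles. The authors deposited the UMI counts of each gene in each library, which are not normalized: per the labels and the methods, they used UMI-tools (version 1.0.0), HISAT2 (version 2.1.0) on GRCm38 and featureCounts (version 1.6.4). The annotation release and strand setting are not given in the sources used here. All 19353 gene identifiers matched GENCODE M21, 19331 with the same name. Replicate libraries differed by slightly more than sampling noise (chi-square per degree of freedom 1.31 for sham and 1.53 for overloaded, against 6.45 to 8.09 between groups), and no pair was merged as 1 library deposited 2 times.

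Genes were kept by filterByExpr (minimum count 10, minimum total 15), scaled by TMM (factors 0.909, 0.908, 1.08 and 1.12) and tested with glmQLFit and glmQLFTest of edgeR (version 4.0.16, R version 4.3.3), with Benjamini-Hochberg adjustment over all 7228 genes tested and a threshold of 0.1. The prior count was 0.125. The test was checked on simulated counts. Floors of 3 UMIs over the group and Clopper-Pearson intervals of 95% cover counting error only. Alternatives were DESeq2 size factors, library sizes alone, UMIs per tube, loess offsets (limma version 3.58.1), DESeq2 (version 1.42.0), other filters, a threshold of 0.05, the replicate number as a block, thinning to 260488 UMIs, and each library left out. Other steps used Python 3.11.15 with numpy 2.4.6, pandas 2.3.3, scipy 1.17.1 and matplotlib 3.10.9. Promoters were taken from RefSeq (GRCm38.p6), which was read for the members of the list with an entry.

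The 10 genes, the further lists, the tests and the alternatives were chosen with earlier results of these data known. The naming rule took all 10 genes, Pax7, Myf5, Myod1 and Myog, up to 4 rises and 4 falls per fusion or junction list (genes that passed the test and averaged 10 UMIs per library or more), and of each marker list its most abundant gene and defining markers at 0. Other named genes were chosen after their values were seen. Some genes this rule named are not reported or drawn here.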

Additional observations from a re-analysis of the deposited data

How the results depend on the processing

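The rises of Mymk and Myof passed under every alternative run, with log2 fold changes of 2.04 to 3.57 for Mymk and 3.35 to 4.86 for Myof; Mymx was not tested after thinning and passed elsewhere except with the offsets (adjusted p = 0.28). In UMIs per tube, 7 of the 10 genes were higher and 0 lower, 32 of the further list genes were higher and 1 was lower, and 4481 of all genes were higher and 331 lower. With DESeq2, 0 of the 10 genes were lower, 11 list genes were lower, and 967 of all genes were higher and 1215 lower, against 1868 and 1898 by edgeR. With library sizes alone, which put the median of all genes at 0.33, 15 list genes were higher and 10 lower, and all genes split into 2694 higher and 1351 lower; with the offsets 13 were higher and 10 lower; with no filter 12 were lower. When each library was left out, 0 to 1 of the 10 genes were lower, 3 to 4 were higher, 7 to 9 list genes were higher and 13 to 15 lower, and all genes gave 1360 to 1668 higher and 1489 to 1720 lower; the lone library of a group was taken to vary like the other group. Without overloaded 2, 0 of the 10 genes were lower. Some log2 fold changes turned sign. Ctnnd1 did so with library sizes alone (0.19), in UMIs per tube (0.88) and with the offsets (0.26). It also did so after thinning (0.077) and without overloaded 2 (0.013). Dock1 turned sign in UMIs per tube (0.54) and was level without overloaded 2 (4.7e-06, SE 0.72). Ctnna1 turned sign with at least 10 UMIs in every library of a group (-0.014) and without sham 1 (-0.074). Pax7, at -0.84 after TMM scaling, did so in UMIs per tube (0.12), and Myf5 without sham 2 (-0.16). With each library left out, Ctnna1 ranged from -0.074 to 0.13, Ctnnd1 from -0.17 to 0.013 and Dock1 from -0.77 to level (4.7e-06). Cdh15 ranged from 0.35 to 0.65 and Jam3 from 0.22 to 0.72. The genes that passed as higher were not the same in each of these runs. Cdh2, when kept, had a log2 fold change of 2.60 with no filter (adjusted p = 0.010), 2.46 with at least 10 UMIs (0.011), 2.63 with DESeq2 (0.187), 1.53 without sham 1 (0.302) and, against a lone sham library at 0 UMIs, 6.35 without sham 2 (0.0325). With library sizes alone Jam3 (0.76), Myf5 (0.37) and Myod1 (0.57) passed as higher, and Myod1 (0.36) also after thinning. The causes of these shifts were not tested. The deviations of replicate 1 from its group had a correlation of -0.034 between the groups, over genes. With 2 libraries per group, this value cannot show whether the samples were paired. With the replicate number as a block, 4 of the 10 genes were higher and 1 lower, and 7 list genes were higher and 18 lower. All genes then gave 1806 higher and 1864 lower. With 260488 to 483528 UMIs per library, differences of genes with few UMIs in a group, such as Cdh2 with 2 in sham MuSCs, could be measured only within wide intervals.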

Other observations

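Other members of the cadherin superfamily and of the caveolin group were also counted; this choice was made after seeing their values. Besides Cdh15, Cdh2 and Cdh13, the most counted genes by name were Pcdh18 with 53, 65, 73 and 120 UMIs in sham 1, sham 2, overloaded 1 and overloaded 2, Pcdh7 with 35, 28, 80 and 68, and the giant protocadherin Fat1 with 26, 25, 54 and 70, none of which passed edgeR's quasi-likelihood test. Pcdh17 was lower in overloaded MuSCs, with 14, 18, 9 and 5 UMIs and a log2 fold change of -2.13 (SE 0.45, adjusted p = 0.0010). Cdh1, the gene of E-cadherin, had 0, 0, 0 and 2 UMIs.

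Cavin4, a muscle partner of the caveolins, had 1 and 0 UMIs in the sham libraries and 35 and 25 in the overloaded libraries, where Cav3 had 18 and 22. Cav1, the caveolin of many cell types, had 168 and 159 UMIs in sham and 225 and 267 in overloaded libraries. Dysf, the gene of dysferlin and the closest ferlin relative of Myof, had 0, 1, 3 and 8 UMIs, too few for the test.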
